A study of Mus musculus with 9 samples.

Results

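The 6 ligand and receptor genes of the colony-stimulating factor axis were followed here in nuclei of mouse epididymal adipose tissue, the visceral fat depot beside the testis. They are the ligands Csf1 and Il34 and the receptor genes Csf1r, Csf2ra, Csf2rb and Csf3r, taken by symbol from the gene lists of the matrices, which gave 6 of 32285 genes. Each was counted as UMIs (unique molecular identifiers, 1 for each captured RNA molecule) in all 9 libraries and in classes of nuclei gated on other marker genes. None of the members served as a marker.

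The libraries came from male C57BL/6J mice by droplet single-nucleus RNA sequencing, with 1 library for each diet group and nuclei of 5 mice pooled in it. Chow groups were C (18 weeks old), CC (26 weeks) and CCC (39 weeks). By the methods of the study, C received the low-fat control diet and the others had been moved to a standard chow. High-fat diet (HFD) was given for 12 weeks in H (18 weeks old) and for 25 weeks in HH (31 weeks old). Weight loss groups ate HFD for 12 weeks (HC, 26 weeks old) or 25 weeks (HHC, 39 weeks old) before an 8-week return to chow. CCH mice ate chow and then their first HFD for 4 weeks, and HCH mice ate HFD for 12 weeks, chow for 8 weeks and HFD again for 4 weeks. Both were 30 weeks old. The labels place C, H, HH, CCH and HCH in 1 sequencing set and CC, CCC, HC and HHC in the other, so every HFD library was in the first set and both weight loss libraries in the second. Diet and set can be told apart only through the chow libraries, and of these C alone was in the first set. C also differed from CC and CCC in base diet and age, so a set difference cannot be separated from those. Mice pooled within a library could not be separated, so no group has an error between mice. The p-values of diet fits below measure the spread between libraries of 1 diet state, which also differed in age and in weeks of diet. Those for classes or kinds compared within libraries rest on libraries of all diet states. Those comparisons were a picked list and not among the planned tests, so their p-values do not account for the choice of classes.

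CSF1 and IL-34 are secreted proteins that bind the same receptor tyrosine kinase, encoded by Csf1r, which macrophages need for survival and proliferation. Csf2ra encodes the binding subunit of the receptor for GM-CSF, and Csf2rb the beta subunit that carries the signal for GM-CSF, IL-3 and IL-5. Csf3r encodes the receptor for G-CSF, best known from neutrophils. In adipose tissue, stromal cells are known to make CSF1, and macrophages respond to it.

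In total 76356 nuclei of 91687 barcodes were kept, with a median of 2066 to 3240 UMIs per nucleus in a library and library totals of 22599619 to 66615262 UMIs. Libraries shared 0.141% to 0.493% of the barcodes of the smaller library of a pair. The gate placed 16359 nuclei in the macrophage-like class, from 339 in CCC to 3699 in HH, and of its 15 markers 10 to 15 were at least 2-fold above the other classes in each library. Among these nuclei 13.7% to 33.5% had just the minimum of markers, and 17394 nuclei in all had too few markers for any class. Levels are given as CPM, the UMIs of a gene per 1000000 UMIs of the class in that library. Intervals are 95% and cover counting error only.

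The promoters of 3 members are shown, those for which the RefSeq table used here gave a window to print. Csf2ra and Csf3r are a pair of receptor genes that differed in opposite directions between kinds of macrophage below, and Csf1 is a ligand for which no diet difference was called. Sequences are from RefSeq on GRCm38.p6, run 5′ to 3′ on the strand of the gene from 250 bases before to 50 after its start, and capitals mark GAGGAA (or TTCCTC on the other strand), the core of the site bound by the myeloid factor PU.1. The Csf2ra window lies at chr19:61228369-61228668 (minus strand), that of Csf3r at chr4:126024409-126024708 (plus strand) and that of Csf1 at chr3:107760420-107760719 (minus strand).

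Csf2ra: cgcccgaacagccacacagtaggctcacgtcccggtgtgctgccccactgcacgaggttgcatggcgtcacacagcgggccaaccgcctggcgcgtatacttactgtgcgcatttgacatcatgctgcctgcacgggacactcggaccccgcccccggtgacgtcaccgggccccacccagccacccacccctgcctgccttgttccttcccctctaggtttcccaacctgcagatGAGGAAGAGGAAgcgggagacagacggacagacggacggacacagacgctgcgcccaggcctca
Csf3r: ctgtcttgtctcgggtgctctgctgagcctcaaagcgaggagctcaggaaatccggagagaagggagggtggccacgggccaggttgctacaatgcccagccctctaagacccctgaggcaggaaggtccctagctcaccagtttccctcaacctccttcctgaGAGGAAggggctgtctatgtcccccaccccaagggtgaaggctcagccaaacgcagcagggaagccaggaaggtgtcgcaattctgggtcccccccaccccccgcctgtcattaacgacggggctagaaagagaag
Csf1: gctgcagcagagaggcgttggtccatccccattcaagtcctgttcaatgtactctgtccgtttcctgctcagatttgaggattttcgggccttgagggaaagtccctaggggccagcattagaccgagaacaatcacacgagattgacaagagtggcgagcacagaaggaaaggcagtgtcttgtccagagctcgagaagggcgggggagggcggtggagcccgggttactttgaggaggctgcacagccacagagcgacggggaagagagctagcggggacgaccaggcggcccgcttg

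The Csf2ra window held 2 matches side by side, whose first bases lie at -14 and -8 from the start of the gene. The Csf3r window held 1 match at -86, and the Csf1 window held 0. Such a match was found in 28.3% of 32851 promoters of this length, so it is a description of these windows and not a site shown to be bound.

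Each member had its own pattern over the classes. Of the Csf1 UMIs of all kept nuclei, 55.7% lay in progenitor-like nuclei, the stromal cells that give rise to adipocytes. Csf1r had 55.4% of its UMIs in macrophage-like nuclei and Csf3r 64.4%. Of the Csf2ra UMIs, 47.2% lay in macrophage-like nuclei and 33.4% in nuclei with too few markers for a class. The latter are not shown to lie outside macrophages. Leiden clusters, an alternative grouping named by the gated nuclei in each cluster, put 5935 nuclei of H and 6138 of HH in macrophage clusters. The gate placed 3500 and 3699 there. In CCC the numbers were 331 and 339. The UMIs of Il34 were spread over nuclei with too few markers (32.4%), epithelial-like (16.4%), adipocyte-like (15.8%) and progenitor-like (15.6%) nuclei. Neutrophils, the cells best known for the G-CSF receptor, numbered 4 neutrophil-like nuclei in all 9 libraries, and monocyte-like nuclei numbered 8, so neither class has a level here.

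**Figure D1:**
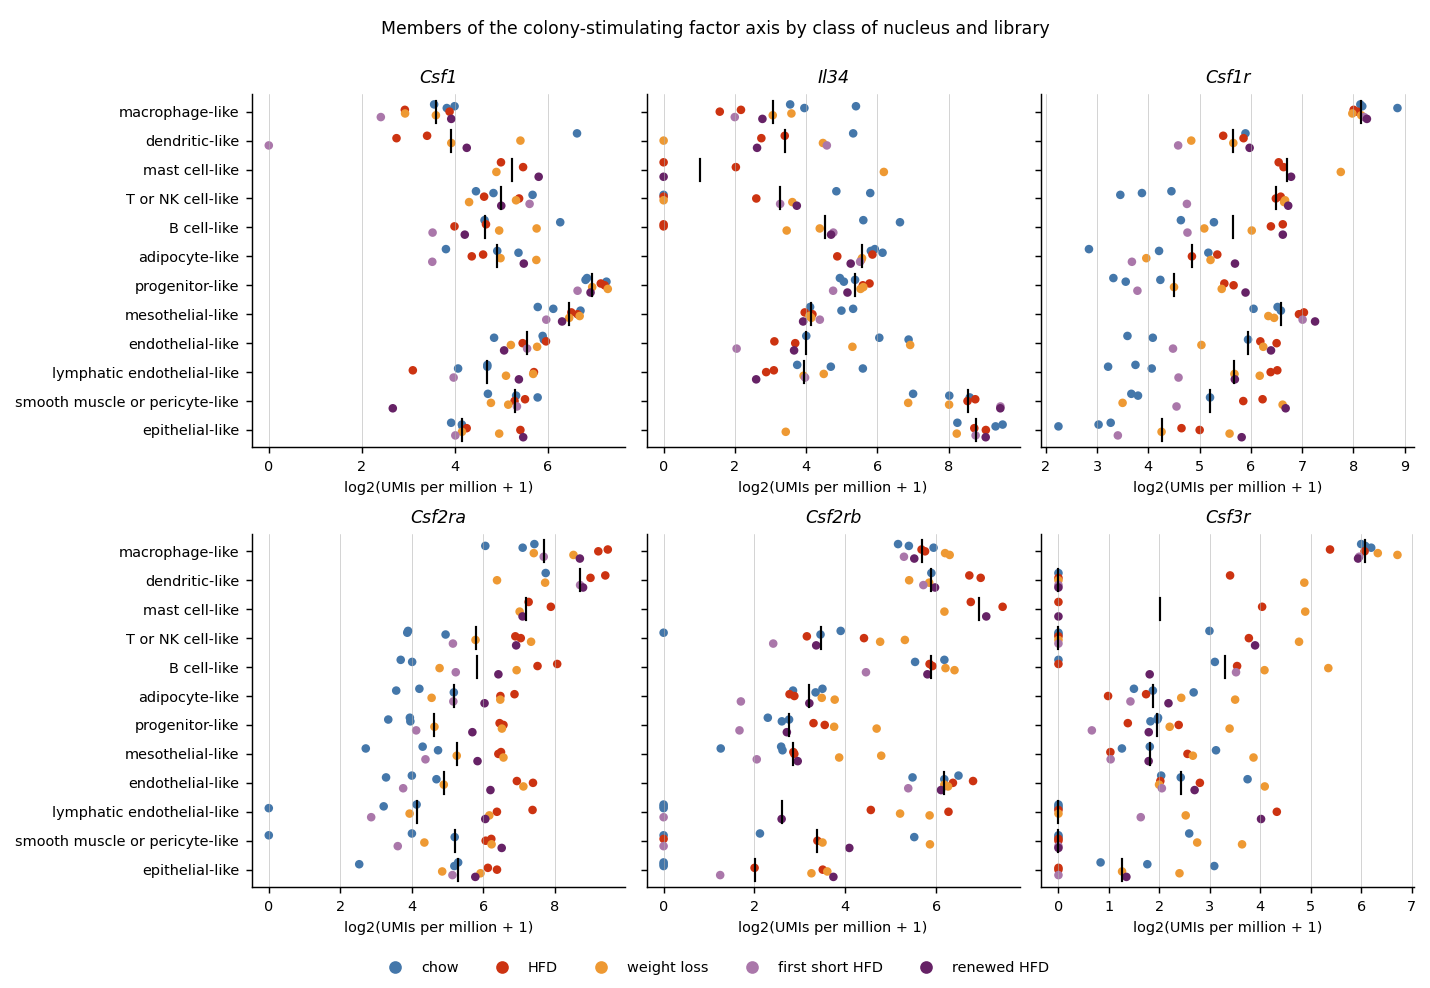
Level of each member as log2(CPM + 1) on the x axis against class of nucleus on the y axis, 1 point per library coloured by diet state and a black line at the median, for classes with at least 20 nuclei in a library. Csf1 is highest in progenitor-like nuclei in each of the 9 libraries, while Csf1r and Csf3r have their highest medians in macrophage-like nuclei.

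Csf2ra, the binding subunit of the GM-CSF receptor, had the widest range over diets of the receptor genes in macrophage-like nuclei. Its level was 172 CPM in C, 65.8 in CC and 137 in CCC. It was 718 CPM in H and 597 in HH, so both HFD libraries lay above all 3 chow libraries. After weight loss it was 170 CPM in HC and 368 in HHC, the former beside C and the latter between the chow and the HFD libraries. In the short diets it was 206 CPM in CCH and 417 in HCH. The edgeR fit over the 7 libraries of chow, HFD and weight loss gave a log2 fold change of 2.23 ± 0.39 (SE) for HFD against chow (adjusted p = 0.00468), and leaving out each library in turn moved it between 1.95 and 2.62 with the call kept each time. For weight loss against chow it was 1.05 ± 0.39 (adjusted p = 0.143), with 0.50 when HHC was left out (adjusted p = 0.634) and up to 1.48 when HC was (adjusted p = 0.0687). With sequencing set as a term the HFD value was 1.75 and no longer passed (adjusted p = 0.0513).

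Csf2ra was 1 of 2 members called for HFD in macrophage-like nuclei, where 32.7% of all genes tested were called, and 0 members were called for weight loss, where 7.27% of genes were. The other was Il34, which had few UMIs in these nuclei: 10.7 CPM in C, 41.2 in CC and 14.5 in CCC against 3.50 in H and 1.98 in HH (log2 fold change -3.11 ± 0.65, adjusted p = 0.00866). Without HH its value was -2.75 (adjusted p = 0.0626) and with sequencing set as a term -2.14 (adjusted p = 0.0684), so neither passed. The summed epithelial markers in the same nuclei were 43.4 to 57.9 CPM in the chow libraries and 15.4 to 18.9 in the HFD libraries, and epithelial-like nuclei carry Il34; their part in the Il34 difference was not tested. Counted at an unadjusted p under 0.05, 3242 of the 14107 genes tested passed for weight loss in macrophage-like nuclei.

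Csf1r, the receptor of both ligands, showed no called diet difference in macrophage-like nuclei. It was at 280 CPM in C, 288 in CC and 463 in CCC, at 256 in H and 270 in HH, at 251 in HC and 284 in HHC, and at 295 in CCH and 306 in HCH. CCC stood above the other 8 libraries, which lay within 251 to 306 CPM. The fitted log2 fold changes were -0.52 ± 0.22 for HFD (adjusted p = 0.101) and -0.36 ± 0.22 for weight loss (adjusted p = 0.380). Neither passed the threshold, and without CCC they were -0.26 (adjusted p = 0.278) and -0.11 (adjusted p = 0.752).

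Csf3r was at 62.9 CPM in C, 66.6 in CC and 72.4 in CCC, at 40.7 in H and 66 in HH, and at 79.3 in HC and 104 in HHC. H was the lowest library and HHC the highest, and the chow libraries lay between them (HFD -0.48 ± 0.24, adjusted p = 0.159; weight loss 0.43 ± 0.24, adjusted p = 0.326). Csf2rb ranged from 34.8 CPM in C to 77.7 in HHC. Its HFD value was 0.08 ± 0.24 (adjusted p = 0.827) and its weight loss value 0.75 ± 0.24 (adjusted p = 0.0970), which without CCC was 0.97 and passed (adjusted p = 0.0443). In mouse a neighbouring copy, Csf2rb2, encodes a beta subunit used by IL-3 alone, and 12.3% of the 50-letter words of Csf2rb transcripts also occur in it, so some reads of either cannot be placed. With the UMIs of both summed, an alternative chosen after seeing the data, the values were 0.34 (adjusted p = 0.310) and 0.90 (adjusted p = 0.0609).

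**Figure D2:**
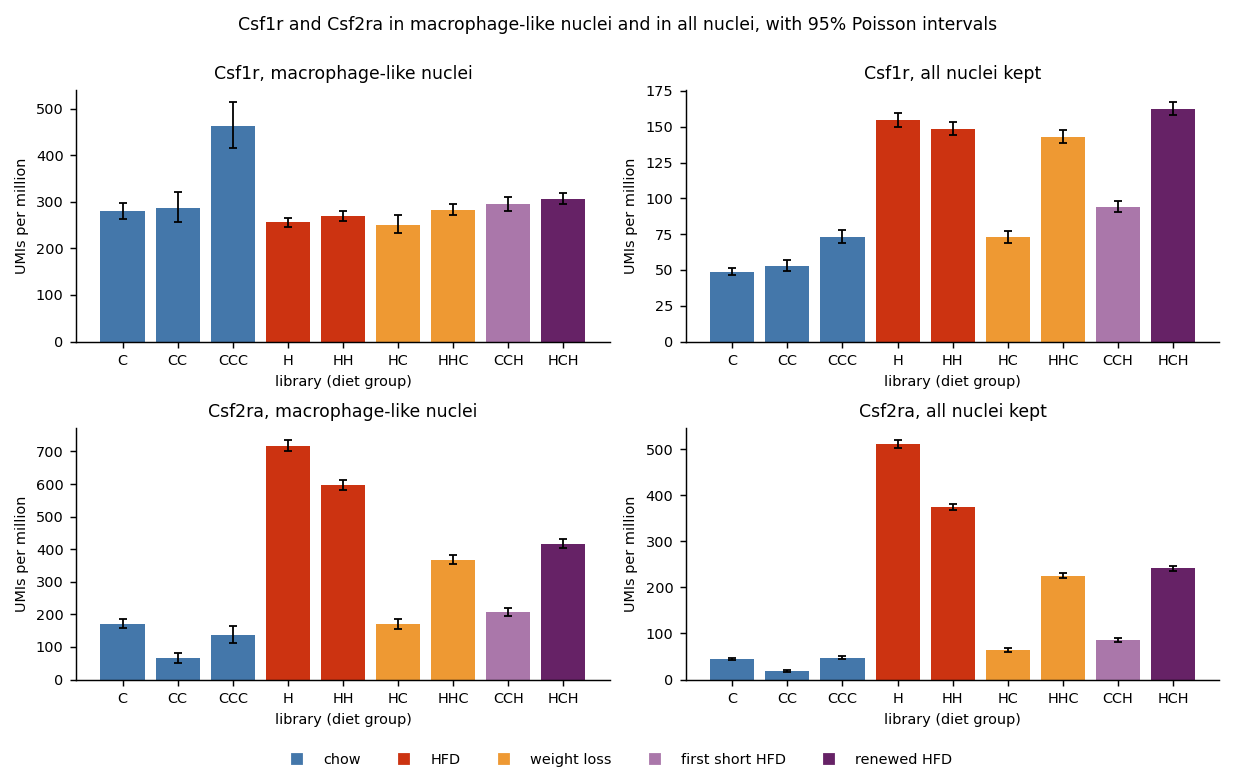
Csf1r (top) and Csf2ra (bottom) in CPM on the y axis, per library on the x axis, in macrophage-like nuclei (left) and in all kept nuclei (right), with bars from 0 and exact Poisson 95% intervals. In macrophage-like nuclei Csf1r lies at 251 to 463 in all 9 libraries, while Csf2ra lies at 597 and 718 in the HFD libraries and at 65.8 to 172 in the chow libraries.

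Set side by side as single libraries, Csf2ra in macrophage-like nuclei was 4.17 times as high in H as in C (3.84 to 4.55) and 9.08 times as high in HH as in CC (7.23 to 11.6). Against C, which shares its sequencing set, HH was 3.47 times as high (3.19 to 3.79). The 12 and 25 week weight loss pairs gave 2.59 for HC with CC (2.02 to 3.35) and 2.69 for HHC with CCC (2.21 to 3.30). Renewed against first short HFD, HCH with CCH, gave 2.02 (1.89 to 2.16). These pairs share control CC in part and have no test.

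By the same rule, a ratio of at least 2 in either direction, 2 of 6 members passed in macrophage-like nuclei in H with C, where 39.3% of genes did, and 2 in HH with CC, where 44.1% did. In HC with CC 3 passed (22.8% of genes), in HHC with CCC 1 passed (23.8%) and in HCH with CCH 2 passed (19.8%). Csf1r passed in 0 of the 5 pairs and Csf2ra in all 5, though with TMM factors, with no margin in the gate or with Leiden classes Csf2ra fell below 2-fold in HCH with CCH (log2 ratio 0.87, 0.99 and 0.94), and with Leiden classes Csf1r passed in HHC with CCC. Csf1, at 4.3 to 14.9 CPM in these nuclei, was the other member past the fold in HCH with CCH, at 3.28 (2.09 to 5.38). CCH was the lowest library, and HCH at 14.1 CPM lay near CC (14.9) and CCC (13.2). In HC with CC it passed the other way, at 0.444 (0.216 to 0.916), from 18 and 17 UMIs.

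Seen per nucleus, Csf2ra had a UMI in 72.4% of macrophage-like nuclei of H and in 25.7% of those of C. In adipocyte-like nuclei, which are not known to use GM-CSF receptors, the shares were 28.6% in H and 6.70% in C at median depths of 4454 and 4775 UMIs, against 2437 and 2304 UMIs in the macrophage-like nuclei. After each nucleus was thinned to 1000 UMIs, leaving out 117 shallower macrophage-like nuclei of H and 92 of C, the shares in macrophage-like nuclei were 47.7% and 13.8%, and those in adipocyte-like nuclei 11.6% and 1.49%. H stayed above C at the common depth.

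The rise of Csf2ra was also seen outside the macrophage-like class. For HFD it was called in progenitor-like (log2 fold change 2.59 ± 0.44, adjusted p = 0.00944), mesothelial-like (2.39 ± 0.42, adjusted p = 0.00527) and adipocyte-like nuclei (2.11 ± 0.53, adjusted p = 0.0371). With sequencing set as a term it passed in none of the 3, at 2.38, 2.18 and 2.20 in that order (adjusted p = 0.0728, 0.0584 and 0.0942). In mesothelial-like nuclei the call was lost without HH (2.38, adjusted p = 0.0572), and in adipocyte-like nuclei without H (1.93, adjusted p = 0.157), HH (2.27, adjusted p = 0.175), C (2.03, adjusted p = 0.0517) or CC (1.78, adjusted p = 0.107). In progenitor-like nuclei 2 members were called for HFD (17.9% of genes) and 1 for weight loss (1.26%). The summed macrophage markers, given for chow and HFD below, were at 1088 CPM in HC and 3086 in HHC in these nuclei. The member called for weight loss was Csf2rb (1.88 ± 0.35, adjusted p = 0.0430), a call that was kept without HC alone of the 7 libraries, with values of 1.42 without HHC to 2.03 without CC in the others (adjusted p = 0.0754 to 0.226). With sequencing set as a term this weight loss call of Csf2rb was lost (0.358% of genes called). In mesothelial-like nuclei, which line the depot, 1 of the 5 members tested was called for HFD (10.9%) and 0 for weight loss (0.661%). In adipocyte-like nuclei 1 was called for HFD (12.7%) and 0 for weight loss, where 0% of genes were called by edgeR and 1482 of 14532 had an unadjusted p under 0.05. Macrophage markers moved in the same direction in these classes. Their summed level in progenitor-like nuclei was 431 CPM in C, 564 in CC and 470 in CCC but 2527 in H and 3329 in HH, with 13 to 15 of the 15 markers present in the chow libraries and 15 in the HFD libraries. In mesothelial-like nuclei it was 552 to 783 CPM in chow and 2789 to 2894 in HFD. In adipocyte-like nuclei it was 666 CPM in C, 732 in CC and 953 in CCC, against 1748 in H and 1885 in HH. Csf2ra in the same adipocyte-like nuclei was at 17.6, 10.8 and 35.2 CPM in the chow libraries, against 117 in H and 88.4 in HH. The part of macrophage RNA in these differences was not tested.

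On the scale of those markers Csf2ra gave no test result past the threshold between 2 of the classes. Per 100 UMIs of the 15 macrophage markers it had 0.976 to 3.54 UMIs in mesothelial-like and 1.62 to 4.28 in progenitor-like nuclei, higher in the former in 6 of 9 libraries (mean ratio 1.01, exact sign-flip permutation p = 0.902, adjusted over 19 such comparisons 0.902).

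Csf1r differed between the same classes on that scale. In mesothelial-like nuclei the chow libraries C, CC and CCC held 90.8, 65.4 and 95.03 CPM, the HFD libraries H and HH 130 and 122, the weight loss libraries HC and HHC 80.0 and 86.6, and CCH and HCH 128 and 151. Progenitor-like nuclei had 8.98, 17.8 and 10.8 CPM in C, CC and CCC, against 43.7 in H and 49.7 in HH. In all 9 libraries the mesothelial-like level was the higher one. Per 100 macrophage marker UMIs, Csf1r in mesothelial-like nuclei was 2.99 (HHC) to 22.7 (CCH) and in progenitor-like nuclei 1.37 to 3.33, a mean ratio of 3.75 with all 9 libraries in the same direction (exact p = 0.00391, the smallest that 9 libraries allow, adjusted p = 0.00675). Against endothelial-like nuclei, at 1.51 to 5.03, the ratio was 3.59, also in 9 of 9 (exact p = 0.00391, adjusted p = 0.00675).

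The chow and CCH libraries, in which the markers were scarce, had the highest values of this ratio, from 11.5 in CC to 22.7 in CCH. With 1 UMI or more, Csf1r was found in 15.3% of mesothelial-like nuclei of C and 2.05% of its progenitor-like nuclei, at medians of 1928 and 2460 UMIs. Thinned to 1000 UMIs the shares were 7.87% and 0.991%. Diet fits in mesothelial-like nuclei gave 0.55 ± 0.22 for HFD (adjusted p = 0.134) and 0.04 ± 0.23 for weight loss (adjusted p = 0.977), so no diet effect on Csf1r was called there. In progenitor-like nuclei it was called for HFD (1.70 ± 0.34, adjusted p = 0.0138), alongside the macrophage markers given above. That call was lost without H (1.79, adjusted p = 0.0684), without HH (1.61, adjusted p = 0.0899) and with sequencing set as a term (2.11, adjusted p = 0.0526). The gene spans 61100598 to 61132149 on the plus strand of chromosome 18 (GRCm38) and overlaps Hmgxb3 and Mir6983 in the GENCODE vM21 annotation.

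**Figure D3:**
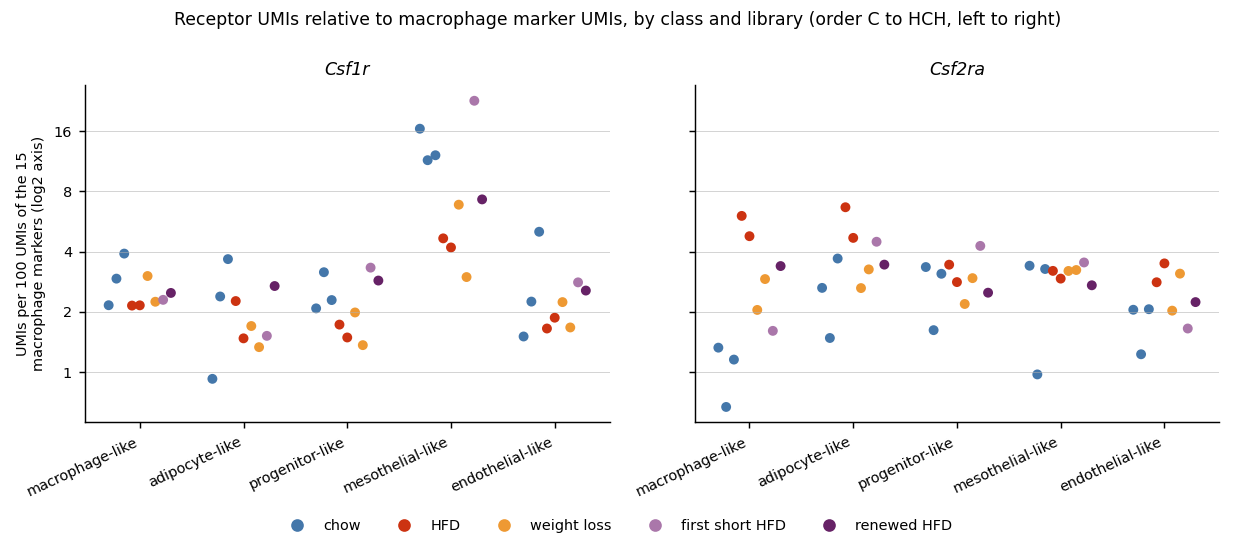
Csf1r (left) and Csf2ra (right) UMIs per 100 UMIs of the 15 macrophage markers on a log2 y axis, for 5 classes of nuclei on the x axis, with 1 point per library in the order C, CC, CCC, H, HH, HC, HHC, CCH, HCH. Csf1r reaches 2.99 to 22.7 in mesothelial-like nuclei and 1.37 to 3.33 in progenitor-like nuclei, while Csf2ra overlaps between these classes.

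The receptor genes differed between kinds of macrophage. Macrophage-like nuclei were split by further markers into perivascular macrophage-like nuclei (Lyve1, Cd163 and others), lipid-associated macrophage-like nuclei (Trem2, Gpnmb and others, cells that take up lipid around dying adipocytes) and non-perivascular macrophage-like nuclei (Cd74 and other class II genes). The lipid-associated kind made up 1.37% to 3.84% of the macrophage-like class with chow, 38.2% and 29.7% in the HFD libraries H and HH, 39.6% and 41.8% in the weight loss libraries HC and HHC, 2.06% in CCH and 21.8% in HCH. Libraries with at least 20 nuclei of both kinds, 7 of 9, were compared within themselves.

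Csf2ra was higher in lipid-associated than in perivascular macrophage-like nuclei in 7 of 7 libraries (mean ratio 2.52, exact p = 0.0156, the smallest that 7 libraries allow, adjusted p = 0.0186). Csf1r went the other way, at 128 to 221 CPM in lipid-associated and 298 to 409 CPM in perivascular macrophage-like nuclei, so the ranges did not overlap (ratio 0.507, lower in 7 of 7, exact p = 0.0156, adjusted p = 0.0186). Csf3r was lower as well, at 19.6 to 78.4 against 60.4 to 118 CPM (ratio 0.526, 7 of 7, exact p = 0.0156, adjusted p = 0.0186). Csf2rb was higher in 6 of 7 libraries (ratio 1.68, exact p = 0.0312, adjusted p = 0.0349), with C as the exception at 2 UMIs in 24 lipid-associated macrophage-like nuclei. Non-perivascular macrophage-like nuclei were not tested. In C, H, HHC, CCH and HCH they held 425, 737, 390, 397.5 and 530 CPM of Csf2ra, against 405, 858, 480, 414 and 578.5 in the lipid-associated kind (HC is given below). For Csf2rb they held 80.7, 72.9, 63.6, 58.4 and 51.2 CPM, against 21.3, 60.4, 107, 84.4 and 58.7.

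**Figure D4:**
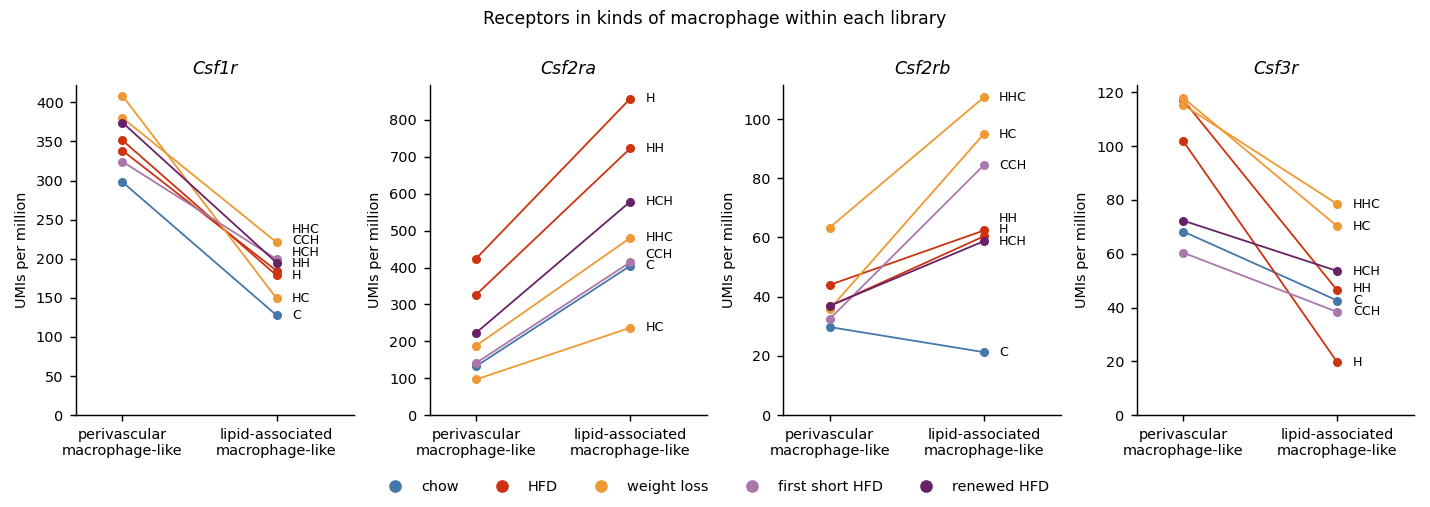
Level in CPM (y axis) of the 4 receptor genes in perivascular and lipid-associated macrophage-like nuclei (x axis), with 1 line per library that had at least 20 nuclei of both kinds. Csf2ra is higher in lipid-associated macrophage-like nuclei in 7 of 7 libraries, and Csf1r and Csf3r are lower in 7 of 7.

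Csf2ra was also compared between diets within each kind. In perivascular macrophage-like nuclei it was at 133 CPM in C, 52.3 in CC and 97.1 in CCC, at 424 in H and 326 in HH, at 96.9 in HC and 188 in HHC, and at 142 in CCH and 223 in HCH. Again both HFD libraries lay above all chow libraries, and HC lay among them. The ratios were 3.20 for H with C (2.79 to 3.67) and 6.24 for HH with CC (4.51 to 8.86), and for the weight loss pairs 1.85 (1.19 to 2.91) and 1.94 (1.38 to 2.78). In lipid-associated macrophage-like nuclei it was 858 CPM in H against 405 in C, a ratio of 2.12 (1.54 to 3.001) over 1337 and 24 nuclei, and HCH with CCH gave 1.40 (1.06 to 1.87). HH, HC and HHC held 723, 237 and 480 CPM there, so HC lay below C. Their controls CC and CCC had 5 and 13 such nuclei, too few for a pair. In non-perivascular macrophage-like nuclei it was 737 CPM in H and 425 in C, a ratio of 1.73 (1.42 to 2.13), while HCH with CCH gave 1.33 (1.17 to 1.53) and HHC with CCC 1.34 (0.931 to 1.98), an interval that includes 1. HC held 117.8 CPM over 63 such nuclei, below C and CCC (291 CPM).

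Csf1r in perivascular macrophage-like nuclei had ratios of 1.18 for H with C (1.05 to 1.32) and 1.13 for HH with CC (0.960 to 1.32). Its weight loss pairs went opposite ways, at 1.36 for HC with CC (1.12 to 1.65) and 0.727 for HHC with CCC (0.616 to 0.858), where CCC held 523 CPM, CC 301, HC 409 and HHC 380. In non-perivascular macrophage-like nuclei its ratio was 1.95 for H with C (1.45 to 2.68), 0.782 for HHC with CCC (0.572 to 1.09) and 1.60 for HCH with CCH (1.34 to 1.93), the pairs with enough nuclei. Csf3r in perivascular macrophage-like nuclei was 1.49 times as high in H as in C (1.18 to 1.88) and 1.69 times as high in HH as in CC (1.23 to 2.35), whereas over all macrophage-like nuclei the same pairs gave 0.646 (0.546 to 0.767) and 0.991 (0.779 to 1.28). These are single libraries and were not tested.

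Csf2ra was also found in dendritic-like nuclei. The 4 libraries with at least 50 of them, H, HH, CCH and HCH, were all on HFD at harvest. Dendritic-like nuclei there held 684, 513, 419 and 444 CPM of Csf2ra, and macrophage-like nuclei 718, 597, 206 and 417. With 24, 22 and 43 dendritic-like nuclei, C, HC and HHC had 214, 82.8 and 212 CPM. In the 4 libraries dendritic-like nuclei held 15.1 to 35.6 Csf2ra UMIs per 100 macrophage marker UMIs. That scale is not compared with macrophage-like nuclei, because its markers gate them. Csf1r in the same dendritic-like nuclei was at 23.0 to 61.9 CPM and 1.28 to 2.25 UMIs per 100 marker UMIs.

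Csf2rb was found in several classes besides macrophage-like nuclei. In libraries with at least 50 such nuclei, dendritic-like nuclei held 51.65 to 125.3 CPM and B cell-like nuclei 20.9 to 83.7. Mast cell-like nuclei of HH held 175.5 CPM. Csf2rb was also found in endothelial-like nuclei, which line blood vessels. Its level there was 89.0, 43.6 and 71.5 CPM in the chow libraries C, CC and CCC. H and HH had 111 and 81.7 CPM, HC and HHC 71.6 and 75.7, and CCH and HCH 40.8 and 67.9, so the diet states overlapped. This was higher than in progenitor-like nuclei by a mean ratio of 9.78 and than in adipocyte-like nuclei by 9.42, each in 9 of 9 libraries (exact p = 0.00391, adjusted p = 0.00675). It was also above the level in macrophage-like nuclei in 7 of 9 libraries (ratio 1.38, exact p = 0.0156, adjusted p = 0.0186). In C, 13.6% of endothelial-like nuclei had a Csf2rb UMI, against 4.44% of adipocyte-like nuclei, at median depths of 1631 and 4775 UMIs.

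Csf1 lay mainly in progenitor-like nuclei. Its level there was 113 CPM in C, 111 in CC and 152 in CCC, 139 in H and 147 in HH, 122 in HC and 155 in HHC, and 98.3 in CCH and 119 in HCH. The diet states overlapped. The fit gave -0.02 ± 0.19 for HFD (adjusted p = 0.953) and 0.08 ± 0.19 for weight loss (adjusted p = 0.887). Progenitor-like nuclei were above every other class compared in 9 of 9 libraries, by 1.57 times over mesothelial-like, 2.82 over endothelial-like, 4.89 over adipocyte-like and 12.7 over macrophage-like nuclei (each exact p = 0.00391, adjusted p = 0.00675). In the adipocyte-like class Csf1 ranged more widely, from 10.4 CPM in CCH and 12.98 in C to 43.6 in HCH and 52.7 in HHC, and HCH was 4.18 times as high as CCH (2.78 to 6.39). HFD and weight loss gave -0.51 ± 0.42 (adjusted p = 0.418) and 0.63 ± 0.39 (adjusted p = 0.643) there.

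Among classes with at least 20 nuclei, Il34 was highest in smooth muscle or pericyte-like or in epithelial-like nuclei in 8 of 9 libraries, and in HC in endothelial-like nuclei (120.2 CPM). In smooth muscle or pericyte-like nuclei, the contractile cells around vessels, it was at 127, 258 and 385 CPM in the chow libraries C, CC and CCC, at 429 and 369 in the HFD libraries H and HH, at 116 and 257 in HC and HHC, and at 701 and 699 in CCH and HCH, the highest pair. The class held 27 to 224 nuclei per library. Its level was above that of progenitor-like nuclei in 9 of 9 libraries (ratio 8.16, exact p = 0.00391, adjusted p = 0.00675). Epithelial-like nuclei had 299 to 731 CPM in 8 libraries and 9.77 CPM in HC, whose 158 epithelial-like nuclei held 7 Il34 UMIs and showed 8 of the 10 epithelial markers, where C, CC, CCC, H, HHC and HCH showed 10. They were above progenitor-like nuclei in 8 of 9 libraries (ratio 7.86, exact p = 0.00781, adjusted p = 0.0124).

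Adipocyte-like nuclei, at 28.3 (HH) to 69.8 CPM (CCC) of Il34, were above progenitor-like nuclei in 7 of 9 libraries, which did not pass (ratio 1.24, exact p = 0.137, adjusted p = 0.144). For HFD their Il34 value was -0.77 ± 0.32 (adjusted p = 0.126) and for weight loss -0.40 ± 0.30 (adjusted p = 0.704). In progenitor-like nuclei the corresponding values were 0.34 ± 0.22 (adjusted p = 0.301) and 0.38 ± 0.22 (adjusted p = 0.487).

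**Figure D5:**
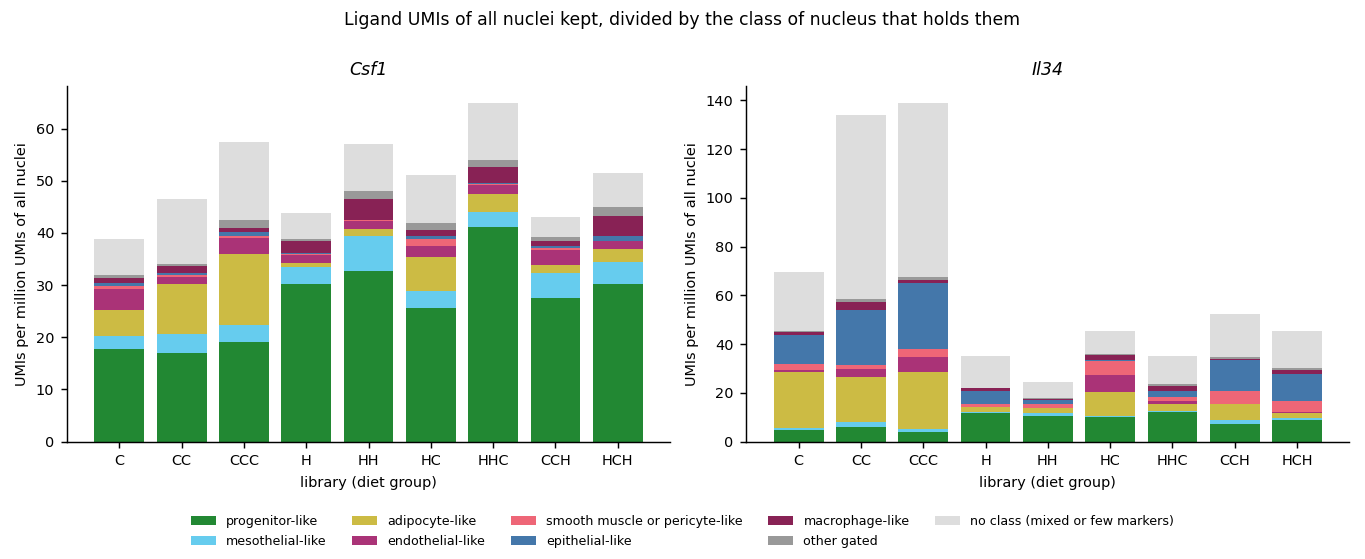
Csf1 (left) and Il34 (right) UMIs in CPM of all kept nuclei (y axis) for each library (x axis), with stacked bars for the class of nucleus that holds them. Progenitor-like nuclei make the largest classed part of Csf1 in each library, and the total of Il34 is 69.6 to 139 in the chow libraries and 24.5 to 52.6 in the other 6.

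Over all kept nuclei the makeup of the tissue and the members both differed between libraries, and fewer cells of a type cannot be told apart there from less RNA per cell. By the gate, macrophage-like nuclei were 5.87% (CCC) to 35.6% (H) of nuclei, and adipocyte-like nuclei 2.14% (H) to 24.5% (CCC). Leiden clusters put more nuclei of H in the macrophage class, as given above. Csf1r over all nuclei was at 48.6 CPM in C, 52.9 in CC and 73.2 in CCC, at 155 in H and 149 in HH, at 72.9 in HC and 143 in HHC, and at 94.2 in CCH and 163 in HCH. Csf2ra was at 45.3, 18.1 and 47.2 CPM in the chow libraries in the same order, at 511 in H and 375 in HH, and at 64.3 in HC and 225 in HHC. Both HFD libraries were above every chow library for both genes.

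For HFD 5 of 6 members were called over all nuclei, where 29.6% of genes were. Csf2ra rose by a log2 fold change of 3.40 ± 0.52 (adjusted p = 0.00799), Csf1r by 1.18 ± 0.24 (adjusted p = 0.0153), Csf2rb by 0.94 ± 0.20 (adjusted p = 0.0175) and Csf3r by 0.95 ± 0.29 (adjusted p = 0.0466). Il34 fell by 2.15 ± 0.39 on the log2 scale (adjusted p = 0.0116). Csf1 was at -0.12 ± 0.20 (adjusted p = 0.665). For weight loss 2 of 6 were called, where 6.41% of genes were: Csf3r at 1.62 ± 0.29 (adjusted p = 0.0262) and Csf2rb at 1.32 ± 0.20 (adjusted p = 0.0164). Over 8 alternatives other than leaving out a library, the Csf2rb call was kept in 8 and the Csf3r call in 6. With sequencing set as a term, 0 members were called for HFD, where 4.16% of genes were, and without H the count was 0 as well (2.16% of genes), with HH then the lone HFD library and assumed to vary like the others. It was 1 without HH (Csf2ra, 3.45% of genes) and 2 without CC (Csf2ra and Il34, 7.88%). Csf3r was lost also without C (0.93, adjusted p = 0.0892) and without CCC (0.96, adjusted p = 0.0879), so its call was kept only without HC or HHC. For weight loss, 0 were called without CC (0.419% of genes) or without HHC (2.60%), 1 without CCC (Csf2rb, 3.28%), and 4 without HC (Csf1r and Csf2ra as well, 7.08%). Without C the count stayed at 2 (3.85%) but the members were Csf2rb and Il34 (-1.71, adjusted p = 0.0422), as Csf3r was lost (1.60, adjusted p = 0.0654).

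Il34 over all nuclei was at 69.6 CPM in C, 134 in CC and 139 in CCC, above H (35.1), HH (24.5), HC (45.5) and HHC (35.1) without overlap. Nuclei with too few markers for a class held 30.9% to 51.8% of its UMIs in the chow libraries and 22.5% to 31.7% in the HFD libraries. Epithelial-like nuclei were 2.77% to 2.93% of nuclei in chow, 0.977% in H, 0.248% in HH and 0.637% in HHC, but 2.93% in HC, whose epithelial-like nuclei held little Il34. The part of this makeup in the fall was not tested.

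In the pairs of libraries over all nuclei, 3 of 6 members passed the 2-fold rule in H with C (40.4% of genes) and 5 in HH with CC (44.6%). In HC with CC 4 passed (22.4%), in HHC with CCC 4 (27.4%) and in HCH with CCH 1 (18.2%). Csf2ra was the member that passed in all 5, at 11.3 (10.7 to 11.9), 20.8 (18.3 to 23.6), 3.56 (3.10 to 4.11), 4.76 (4.37 to 5.19) and 2.82 (2.69 to 2.96) times in that order.

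Of 34 other genes of these pathways, 28 were tested in macrophage-like nuclei. For HFD 4 were called higher and 3 lower, where 17.3% of all genes tested were called higher and 15.4% lower, and the median log2 fold change was 0.06, beside 0.03 over all genes tested. Among those called higher were Tyrobp, an adaptor that couples to myeloid receptors (3.83 ± 0.47, adjusted p = 0.00155), Csf2rb2 (1.12 ± 0.38, adjusted p = 0.0496), and the transcription factor Irf8 (0.85 ± 0.28, adjusted p = 0.0438). The lower ones were Cish, an inhibitor of STAT5 signalling (-4.77 ± 1.05, adjusted p = 0.0107, from 124 UMIs in all), Stat3 (-0.90 ± 0.22, adjusted p = 0.0163) and Plcg2 (-0.80 ± 0.18, adjusted p = 0.0120). Of these calls Tyrobp was kept whichever library was left out (3.44 to 4.31). Without HH the others given here did not pass, at -4.51 for Cish (adjusted p = 0.0728), -0.70 for Stat3 (adjusted p = 0.178), -0.78 for Plcg2 (adjusted p = 0.110), 0.75 for Irf8 (adjusted p = 0.211) and 1.25 for Csf2rb2 (adjusted p = 0.128). Irf8 and Csf2rb2 also missed the threshold without H (0.98 and 0.99), C (0.66 and 1.02) or CC (0.80 and 0.90), Cish without H (-4.91) or C (-2.91), and Stat3 (-1.07) and Plcg2 (-0.77) without H.

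For weight loss Tyrobp (1.84 ± 0.46, adjusted p = 0.0476) and Irf8 (1.17 ± 0.28, adjusted p = 0.0396) were called higher, 2 of the 28 tested, and 0 genes of the list lower, where 4.56% of all genes tested were called higher and 2.72% lower. Tyrobp was lost without each library but CCC and HC, with the lowest value without HHC (1.08, adjusted p = 0.310), and Irf8 without each but CCC, with the lowest value without C (0.97, adjusted p = 0.101). Jak2, the kinase bound to the beta subunit, was at -0.51 ± 0.18 for HFD (adjusted p = 0.0604), and Spi1, which encodes PU.1, at -0.12 ± 0.19 (adjusted p = 0.651). Few or no UMIs of the other ligands were found: macrophage-like nuclei of all libraries held 0 UMIs of Csf2 and of Il3 and 4 of Il5, which encode the ligands of the beta subunit family, and 3 of Csf3, which encodes G-CSF.

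The genes most like each member over 87 sums of a class in a library, by Pearson's r of log2(CPM + 1) among 16316 genes, were Daglb (0.85), Adgre1 (0.83) and Hacd4 (0.83) for Csf1r, and Asah1 (0.89), F630028O10Rik (0.89) and Clec12a (0.89) for Csf2ra. For Csf2rb they were Tm6sf1 (0.78), Nrros (0.77) and Gpr137b (0.77), and for Csf3r 5031425F14Rik (0.76), Gm49144 (0.73) and Ermard (0.71). Slc43a3 (0.77), Tmeff2 (0.74) and Col5a2 (0.73) were closest to Csf1, and Rasl12, Kcnma1 and Slc6a17 (0.76 each) to Il34. These sums share libraries and depth, and the values describe likeness of level only. Among these genes, Adgre1 was 1 of the gate markers.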

How the data were processed

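Nuclei of epididymal fat were profiled with droplet 3′ chemistry (10x v3.1). The authors aligned reads to mm10 and counted UMIs, introns included, with Cell Ranger 6.1.2, and deposited raw counts per nucleus and gene. Seurat 4.1.0 is listed in the submitters' notes. Their methods state that free RNA was estimated with SoupX and left uncorrected. Nuclei were kept at 500 to 3000 genes and up to 40000 UMIs.

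The members and lists were chosen with earlier results of these data known. A nucleus joined a class when at least 3 markers were detected above the background rate of the other classes in its library (Poisson tail 0.05, 6 rounds) and their share was at least 1.5 times that of the next class. Kinds of macrophage needed 2 markers. This scoring and the sum of Csf2rb with Csf2rb2 were chosen after seeing the data. Doublets were left in, and in an alternative the nuclei marked with Scrublet were removed, 1.92% to 5.77% in 5 libraries by its automatic threshold. In CC, CCC, HC and HHC that threshold called 0% to 0.121% and did not work, so the highest scores at an expected rate of 0.8% per 1000 nuclei (3.31% to 7.28%) were removed. Leiden clusters (scanpy 1.11.5, resolution 1) gave 86.2% to 97.9% of gated nuclei the same class.

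UMIs were summed per library and class without mitochondrial genes and Malat1 for CPM. The edgeR 4.0.16 quasi-likelihood test (R 4.3.3, TMM, filterByExpr) was fitted on 7 libraries with 4 residual degrees of freedom and adjusted by Benjamini-Hochberg over all genes tested at 0.05, and the SE was taken from the F statistic. DESeq2 1.42.0 was an alternative. Fits were tested on simulated data. Pairs of single libraries carry exact conditional 95% intervals and pass at a ratio of 2 with at least 20 UMIs together. Classes were compared within libraries with at least 20 nuclei by two-sided exact sign-flip permutation (scipy 1.17.1). The 19 comparisons were picked, not planned, and are not all pairs of classes or kinds. The adjustment covers these alone. Shares have a counting error from the number of nuclei only, and thinning gave them a common depth.

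Named genes were the 6 members, the 3 genes most like each (log2(CPM + 1), sums of at least 50 nuclei, at least 200 UMIs), and genes of the pathway list called in macrophage-like nuclei, at most 5 in each direction by fold. 1 item of the pathway list is not reported here. Jak2, Spi1 and the ligands Csf2, Csf3, Il3 and Il5 were named after their values were seen.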

Additional observations from a re-analysis of the deposited data

Results flagged for a closer look

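In 3 cases a member went one way in one pair of libraries and the other way in the second pair for the same diet change, with counting intervals that exclude a ratio of 1 on both sides. With 1 library in each group the differences were not tested. Csf1 in adipocyte-like nuclei was 1.80 times as high in H as in C (1.07 to 2.87, at 23.3 and 12.98 CPM, from 20 UMIs in H) and 0.673 times as high in HH as in CC (0.460 to 0.966, at 19.5 and 29.0 CPM), whereas against C, which shares the sequencing set of HH, HH was 1.51 times as high (1.04 to 2.14), in the direction of H. Il34 in endothelial-like nuclei was 1.84 times as high in HC as in CC (1.29 to 2.65, at 120.2 and 65.5 CPM) and 0.330 times as high in HHC as in CCC (0.215 to 0.497, at 38.4 and 116.5 CPM). Csf1r in perivascular macrophage-like nuclei was 1.36 times as high in HC as in CC (1.12 to 1.65) and 0.727 times as high in HHC as in CCC (0.616 to 0.858). H and C share a sequencing set, HH and CC do not, and both pairs of weight loss do.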

How the results depend on the processing

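Values are members called of 6 (5 were tested in the main fit of mesothelial-like nuclei), with the share of all genes called in the same fit in brackets. With sequencing set as a term, 0 were called for HFD in macrophage (17.3%), adipocyte (10.7%), progenitor (2.46%) and mesothelial-like (3.51%) and in all nuclei (4.16%), and 0 for weight loss in progenitor-like nuclei (0.358%). Library totals alone, which moved the median log2 fold change of all genes for HFD to 0.19 in macrophage-like (0.03 with TMM), 0.20 in progenitor-like (-0.03) and 0.20 in all nuclei, gave 0 for adipocyte-like HFD (9.79%) and progenitor-like weight loss (0.977%) and 1 for all nuclei weight loss (3.65%). In progenitor-like nuclei they called 12.65% of genes higher and 4.40% lower for HFD, against 10.6% and 7.37% with TMM. For weight loss, DESeq2 called 3 in progenitor-like (3.59%), 1 in mesothelial-like (0.956%) and 5 in all nuclei (15.1%). Without a low-count filter the weight loss counts were 2 in macrophage-like (10.1%), 1 in adipocyte-like (3.71%), 3 in progenitor-like (5.99%), 2 in mesothelial-like (2.34%) and 4 in all nuclei (5.57%). With all deposited barcodes they were 2 in macrophage-like (14.4%), 3 in progenitor-like (2.86%), 2 in mesothelial-like (1.59%) and 4 in all nuclei (8.65%), and 2 for HFD in adipocyte-like nuclei (21.8%). Leiden classes gave 1 for macrophage-like weight loss (6.96%), 2 for adipocyte-like HFD (14.1%) and 0 for progenitor-like weight loss (1.28%), and 1 more marker gave 0 in the last (1.11%). In pairs of macrophage-like nuclei, HHC with CCC rose from 1 to 2 with TMM factors, 1 more marker, no margin, Leiden classes (where Csf1r passed) and all barcodes. HCH with CCH fell from 2 to 1 with TMM factors and no margin. The share of all genes past the fold was taken in the main setting alone (23.8% and 19.8%). These changed counts therefore have no share beside them. The share of macrophage-like nuclei of H with Csf2ra was 47.7% when thinned.

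Leaving out 1 library, the HFD counts ranged from 1 to 2 in macrophage-like (10.0% to 33.9%), 0 to 1 in adipocyte-like (0.0455% to 18.5%), 1 to 2 in progenitor-like (1.76% to 20.6%), 0 to 2 in mesothelial-like (1.25% to 13.3%) and 0 to 5 in all nuclei (2.16% to 34.2%), and the weight loss counts from 0 to 1 (2.72% to 6.56%), 0 to 0 (0% to 0.290%), 0 to 2 (0.312% to 2.19%), 0 to 1 (0.187% to 1.43%) and 0 to 4 (0.419% to 7.08%) in that order. A lone HFD or weight loss library was assumed to vary like the others. Csf2ra in macrophage-like nuclei for HFD kept its direction throughout.

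Values that changed sign were never called. For HFD they were Csf2rb in macrophage-like nuclei at -0.078 (1 more marker) and -0.069 (without C, the range over libraries left out being -0.069 to 0.30), Csf1 in adipocyte-like nuclei at 0.37 (set term), Csf1 in all nuclei at 0.082 (library totals), 0.16 (set term) and 0.061 (without H, range -0.31 to 0.061), and Csf1 in progenitor-like nuclei at 0.20 (library totals), 0.012 (no filter), 0.077 (set term), 0.15 (without CCC, range -0.084 to 0.15), 0.027 (without H), 0.031 (Scrublet) and 4.2e-05 (no margin). For weight loss they were Csf1 in progenitor-like nuclei at -0.0027 (all barcodes) and Csf1r in mesothelial-like nuclei at -0.081 (without CC, range -0.081 to 0.11), -0.061 (all barcodes) and -0.12 (1 more marker). With Csf2rb2 added, Csf2rb passed for HFD in progenitor-like nuclei (1.31, adjusted p = 0.0203). The causes were not tested. In all, 147 counts stayed within 1.5 times their value, 31 were lower, 20 higher and 8, from pairs or shares, moved. Of the single values 857 stayed the same, 55 lost a call, 32 gained one, 17 changed sign and 53 that have no test moved. For a fit value, the same means that direction and call were kept. For a pair ratio or a share, which has no call, it means a value within the counting interval of the main setting.

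No paired analysis was possible between diet groups because the labels give 1 library per group, so no replicate numbers pair libraries. Classes and kinds were paired within a library.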
